A study of Mus musculus with 4 samples.

Results

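Serotonin, histamine and tachykinin genes were followed through single-cell RNA libraries of mouse duodenal crypts. The genes were Tph1, Ddc, Hdc, Slc18a1, Tac1, Trpa1 and Maob, taken by symbol, 7 of the 31053 genes in the deposited matrices. Unique molecular identifiers (UMIs, each standing for 1 captured transcript) were summed per library and per cell type name in the authors' tables. A level is given as CPM, counts per 1000000 UMIs of such a sum.

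Serotonin is made from tryptophan in 2 steps, by tryptophan hydroxylase (Tph1 in the gut) and then by aromatic amino acid decarboxylase (Ddc). Histamine is made by histidine decarboxylase (Hdc). Vesicular monoamine transporter 1 (Slc18a1) loads amines into secretory granules, Tac1 encodes the precursor of substance P and neurokinin A, Trpa1 encodes a channel opened by irritants, and monoamine oxidase B (Maob) breaks amines down. In the intestinal epithelium serotonin is the product of enterochromaffin cells, a class of enteroendocrine cell, and histamine is best known from mast cells.

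The WT libraries came from Atoh1CreER-T2;R26RTom mice and the APC-KO libraries from mice labelled Atoh1Cre;Apcfl/fl;R26RTom, with 2 libraries of each genotype. The series description names the inducible Atoh1CreER-T2 for both. Atoh1 drives the recombinase in the secretory lineage, where it switches on the red reporter TOM and, in mice with floxed alleles, removes part of Apc. All mice received tamoxifen (1 mg/mL) in 2 intraperitoneal doses 24 h apart, and crypt cells positive for TOM were sorted 12 h after the second dose. The labels give no animal, age, sex or batch, so the p-values below measure only the spread between these libraries, which may be technical.

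The authors' tables kept 4814 and 3821 cells of the WT replicates and 356 and 6243 cells of the APC-KO replicates, an order used for every run of 4 values below. The kept cells held between 3009636 and 27285079 UMIs per library. APC-KO replicate 1 kept only 5.15% of the UMIs of its file, against 37.6% to 50.3% in the other libraries, and it had the fewest cells of each type given here. The libraries shared between 1 and 8 cell barcodes per pair. EC held 387, 270, 45 and 311 cells, NON-EC 305, 188, 13 and 217, EEC-PRE 200, 130, 15 and 197, and TUFT 231, 123, 8 and 276. The names are printed as deposited. In EC the 6 listed enterochromaffin markers (Chga, Chgb, Gfra3, Lmx1a, Reg4, Slc38a11) summed to 64381 to 82451 CPM, against 6893 to 10806 CPM in NON-EC. The 11 listed hormone and factor genes of other endocrine cells summed to 27205 to 44698 CPM in NON-EC and 4161 to 4501 CPM in EC. Apc, the targeted gene, had 87.2, 77.9, 88.1 and 88.1 CPM over all kept cells, and a 3' library does not check a deletion elsewhere in the gene.

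The windows before the transcription starts of the members show which short motifs lie near them. RefSeq windows (GRCm38.p6) were held for 4 of the 7 members, namely Tph1, Ddc, Hdc and Tac1, while Slc18a1, Trpa1 and Maob had no entry. The letters searched on both strands in the 250 bases before each start were the E-box CANNTG, its form CAGATG (so that each match to it counts under both), the homeodomain core TAATTA and the TATA box letters TATAAA. Of 32851 such windows, 66.2% held CANNTG, 14.4% CAGATG, 4.84% TAATTA and 12.4% TATAAA. Tph1 and Tac1 had their highest level in EC, and Hdc passed the test between genotypes in NON-EC, a result resting on few cells, as given below. The windows of Tph1, Tac1 and Hdc are printed, each 5′ to 3′ on the strand of the gene with matches in capitals.
Tph1, outer start, chr7:46672538-46672787, minus strand: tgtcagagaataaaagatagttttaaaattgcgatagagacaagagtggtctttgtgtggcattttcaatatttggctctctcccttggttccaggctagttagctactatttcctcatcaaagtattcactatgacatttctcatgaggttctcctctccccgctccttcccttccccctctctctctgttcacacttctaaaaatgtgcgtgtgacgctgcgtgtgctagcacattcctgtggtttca
Tph1, inner start, chr7:46667378-46667627, minus strand: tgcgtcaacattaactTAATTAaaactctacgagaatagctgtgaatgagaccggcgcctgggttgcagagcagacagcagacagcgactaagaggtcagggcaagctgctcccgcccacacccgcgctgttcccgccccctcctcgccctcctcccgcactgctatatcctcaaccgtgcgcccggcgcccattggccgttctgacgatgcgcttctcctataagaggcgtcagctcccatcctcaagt
Tac1, chr6:7554811-7555060, plus strand: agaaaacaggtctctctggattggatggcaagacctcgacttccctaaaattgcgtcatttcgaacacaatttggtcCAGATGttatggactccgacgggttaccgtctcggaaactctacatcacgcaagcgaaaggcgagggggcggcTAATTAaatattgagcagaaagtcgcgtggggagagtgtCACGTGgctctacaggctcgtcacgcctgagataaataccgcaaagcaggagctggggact
Hdc, chr2:126618679-126618928, minus strand: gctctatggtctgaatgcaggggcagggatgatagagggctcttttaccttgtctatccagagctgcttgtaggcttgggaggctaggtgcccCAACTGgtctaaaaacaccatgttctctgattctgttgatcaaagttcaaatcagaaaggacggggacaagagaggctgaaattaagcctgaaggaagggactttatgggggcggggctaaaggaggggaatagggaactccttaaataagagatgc
The outer Tph1 window held none of these letters, and the inner one held TAATTA 234 bases before its start. The Tac1 window held CAGATG at 173 bases, TAATTA at 100 bases and CACGTG at 61 bases before the RefSeq start at 7555061. The annotated span of Tac1 begins at 7554879, so these matches lie inside it. The Hdc window held CAACTG at 157 bases, and it lies inside the annotated span of Hdc, which reaches out to 126619299. Of the Ddc windows, the one at the gene's outer start held TATAAA at 68 bases and the other held none. These matches are descriptions of letters, since a 3' library does not show which start was used.

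Tph1 (ENSMUSG00000040046, chromosome 7, 46644641 to 46672537, minus strand, GRCm38) encodes the rate-limiting enzyme of serotonin synthesis. Its level in EC was 2089, 1866, 1724 and 1408 CPM, and 94.5% to 98.7% of its UMIs in kept cells lay in EC. In NON-EC it was 40.7, 2.91, 14.3 and 9.51 CPM, so every EC value lay above every NON-EC value. EEC-PRE cells, endocrine precursors by their name, had 2, 0, 0 and 1 Tph1 UMIs in all. In TUFT it was 3.41, 12.4, 0 and 1.16 CPM, and the ranges of NON-EC and of every lower type overlapped with the next in the order.

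Most EC cells carried the transcript. A Tph1 UMI was seen in 79.3%, 75.9%, 84.4% and 71.4% of EC cells, whose median depth was 3066, 3374, 6426 and 2413 UMIs. With each cell thinned to 2000 UMIs the shares were 73.7%, 71.7%, 77.8% and 70.7%. In GOBLET cells, which should lack it, the unthinned shares were 1.84%, 0.37%, 0% and 0.78% at median depths of 4904, 5252, 6906 and 3624 UMIs. The 12 Tph1 UMIs in GOBLET of WT replicate 2 all came from 1 cell. Barcodes of 1 to 50 UMIs, taken as free RNA, held 26.7 to 53.3 CPM of Tph1, and such RNA can add to low values in any name. The difference in EC between the genotypes did not pass the test. Its mean was 1977 ± 158 CPM for WT (SD, n = 2) and 1566 ± 223 CPM for APC-KO (SD, n = 2), with a fitted log2 fold change of -0.27 (SE 0.24, edgeR adjusted p 0.812).

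Ddc (ENSMUSG00000020182, chromosome 11, 11814101 to 11898144, minus strand) encodes the decarboxylase that completes serotonin synthesis and also acts on other aromatic amino acids. Unlike Tph1 it was spread over the endocrine names. It had 848, 937, 1006 and 684 CPM in EC, 646, 695, 528 and 404 CPM in NON-EC, and 518, 394, 345 and 313 CPM in EEC-PRE. The ranges of EC and NON-EC overlapped, as did those of NON-EC and EEC-PRE, although within each library the order was EC, NON-EC, EEC-PRE.

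Outside these names the Ddc level was lower. ENTERO-PRO, absorptive progenitors by its name, had 100, 99.9, 183 and 80.4 CPM, below every EEC-PRE value and above every TUFT value. TUFT had 30.7, 28.3, 56.8 and 39.4 CPM, overlapping ISC at 37.9, 36.2, 26.4 and 34.6 CPM. GOBLET had 9.86, 9.91, 9.79 and 11.2 CPM, while free RNA held 54.2 to 56.9 CPM. A Ddc UMI was seen in 88.9%, 91.9%, 97.8% and 78.8% of EC cells and in 82.6%, 86.2%, 84.6% and 59.0% of NON-EC cells, against 4.30% to 7.14% of GOBLET cells. An antisense gene, 1700042O10Rik, overlaps Ddc but held only 4 UMIs in kept cells.

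Between the genotypes Ddc did not pass the test in EC, NON-EC, EEC-PRE or all kept cells, the sums that were fitted. In NON-EC both APC-KO values lay below both WT values, with means of 671 ± 34.4 CPM for WT (SD, n = 2) and 466 ± 87.8 CPM for APC-KO (SD, n = 2). The log2 fold change was -0.52 (SE 0.24, unadjusted p 0.0492, edgeR adjusted p 0.560). Cells with at least 2 Ddc UMIs made up 57.0% and 68.6% of WT NON-EC cells and 61.5% and 30.4% of APC-KO NON-EC cells, so APC-KO replicate 2 was the low library by this count. Its NON-EC cells were also the shallowest, with a median of 2406 UMIs against 3315 and 3534 in WT, and after thinning to 2000 UMIs its share of cells with a Ddc UMI was 50% against 68.5% and 68.9%. In EEC-PRE the log2 fold change was -0.34 (SE 0.27, edgeR adjusted p 0.804), again with no overlap. The EC value was -0.01 (SE 0.25, edgeR adjusted p 0.998), and the sign changed without WT replicate 2 or APC-KO replicate 2.

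**Figure D1:**
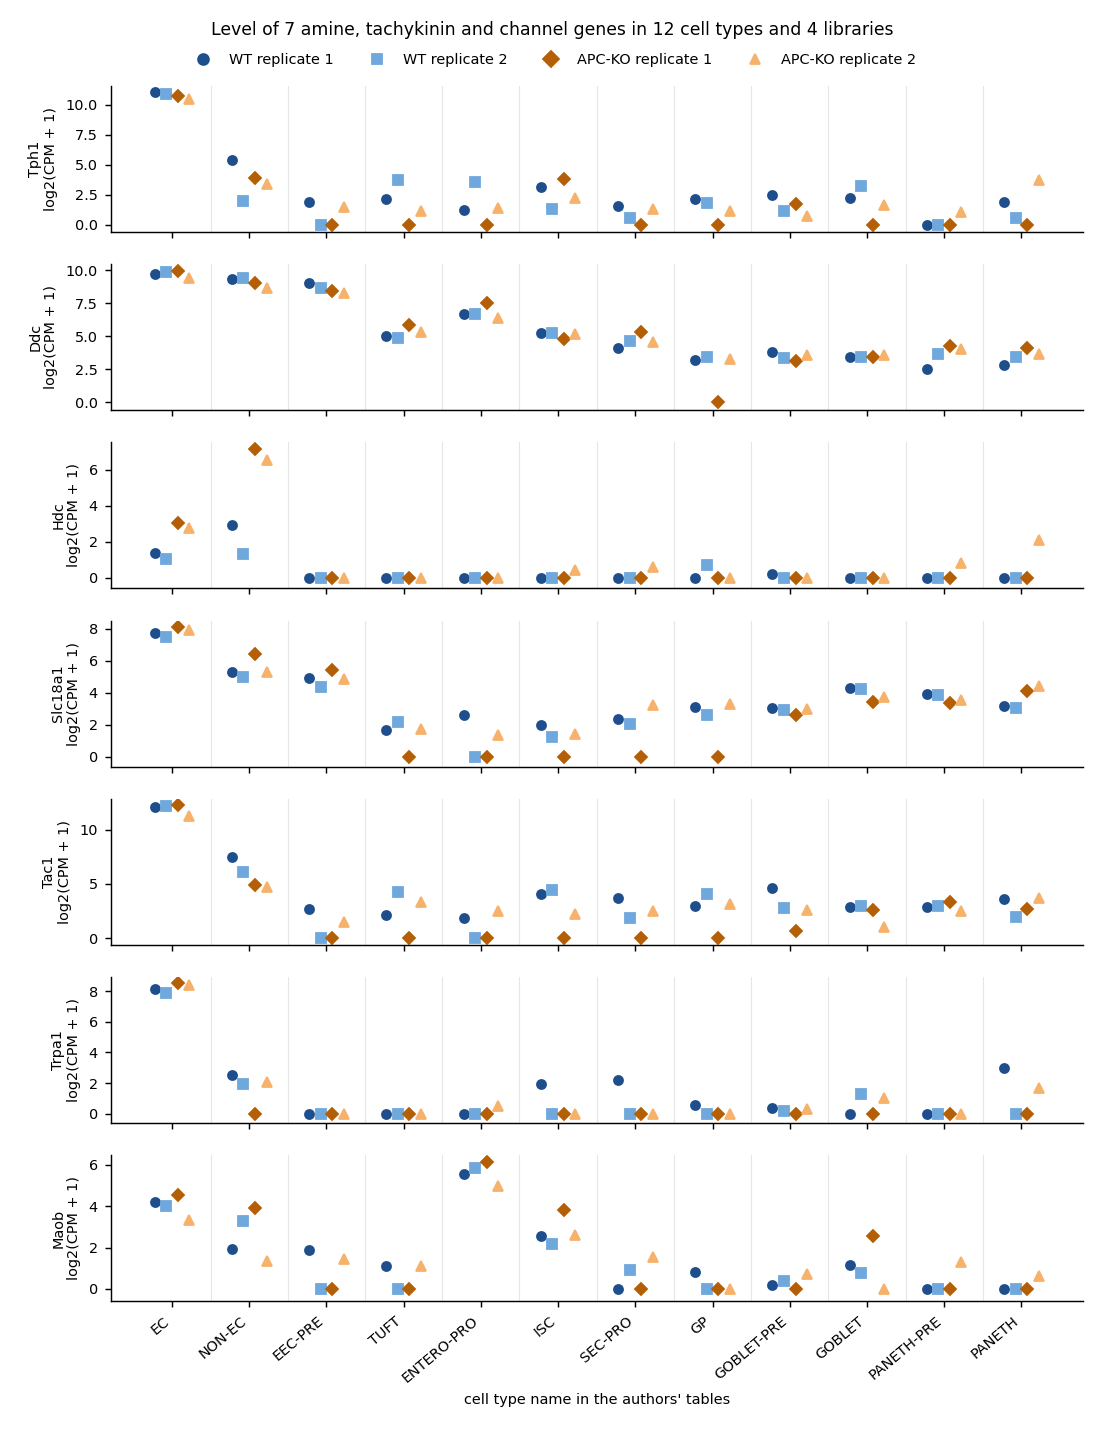
Level of the 7 genes as log2(CPM + 1), a scale with 1 added to each CPM, in the 12 cell type names, with 1 point per library and 1 panel per gene. Tph1, Slc18a1, Tac1 and Trpa1 had their highest values in EC, Ddc was high in EC, NON-EC and EEC-PRE, Hdc stood out in the NON-EC sums of the APC-KO libraries, and Maob was highest in ENTERO-PRO.

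Hdc (ENSMUSG00000027360, chromosome 2, 126593667 to 126619299, minus strand) was higher in APC-KO than in WT among NON-EC cells. There it had 7, 1, 10 and 57 UMIs, or 6.63, 1.45, 143 and 90.4 CPM. Both APC-KO values exceeded both WT values, with means of 4.04 ± 3.66 CPM for WT (SD, n = 2) and 117 ± 37.1 CPM for APC-KO (SD, n = 2). The log2 fold change was 4.44 (SE 0.46, edgeR adjusted p 0.0007). Only the APC-KO sums met the filter on low genes, so Hdc entered this test through the group where it was high. The ratio of the pooled CPM was 20.8, with an exact 95% counting interval from 9.99 to 50.2. That interval takes each UMI as independent and covers neither the spread between cells nor that between libraries. Over the 11 alternatives run for NON-EC the Hdc log2 fold change ran from 3.95 to 5.99. Where both groups kept 2 libraries, the adjusted p was at most 0.0076 (edgeR and DESeq2). The fits that leave out 1 library leave 1 in a group. Without APC-KO replicate 2, the APC-KO side rested on the 10 UMIs of 1 cell. With all 4 libraries edgeR called 9 of 7959 genes, which is 0.113%, and Hdc was 1 of them. It was the only one of the 4 members tested in NON-EC to pass, and 708 genes had an unadjusted p under 0.05.

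Few cells carried the difference. All 8 Hdc-positive NON-EC cells of WT had 1 UMI, so cells with at least 2 UMIs were 0 of 305 and 0 of 188, which allows shares of up to 0.984% and 1.60% (3 cells of the total), with exact 95% upper limits of 1.20% and 1.94%. In APC-KO such cells were 1 of 13 (7.69%, exact 95% interval 0.195% to 36.0%) and 9 of 217 (4.15%, 1.91% to 7.73%). All 10 Hdc UMIs of APC-KO replicate 1 came from 1 cell, and without the highest cell of each library the UMIs were 6, 0, 0 and 42. Without APC-KO replicate 1 the log2 fold change was 4.35, in a fit where the lone APC-KO library is taken to vary like the WT ones. Thinned to 2000 UMIs, 0.36%, 0.56%, 7.69% and 6.40% of NON-EC cells had an Hdc UMI.

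The 10 APC-KO cells with at least 2 Hdc UMIs were described further, a group chosen by its Hdc level and so given without a test. Taking the hormone with the most UMIs in each cell among 9 listed hormones, 4 were led by Cck (cholecystokinin), 2 by Sst (somatostatin), 2 by Ghrl (ghrelin), 1 by Gip (glucose-dependent insulinotropic peptide) and 1 by Sct (secretin). The lead rested on 2 or 3 UMIs in the Gip cell, the Sct cell and 1 Cck cell, and on 6 UMIs in 1 Sst cell, against 832 in the other Sst cell. Sct was seen in 9 of the 10, Chga (chromogranin A) in 8, Ghrl in 7 and Isl1, a listed factor gene of NON-EC, in 5. In the 216 APC-KO NON-EC cells without Hdc their shares were 63.4%, 81.5%, 51.9% and 85.2%, so Isl1 was the lower one in the Hdc cells. A Ddc UMI was seen in 4 of the 10, against 133 of the 216 APC-KO NON-EC cells without Hdc (61.6%), at median depths of 2455.5 and 2473.5 UMIs. Tph1, Tac1, Trpa1, Maob and Slc18a2, the vesicular transporter with an affinity for histamine, had no UMI in any of the 10. They were rare in the 216 cells without Hdc too, at 1.85%, 6.02%, 0.463%, 0.926% and 0.926%. Their absence therefore does not set the 10 cells apart. Slc18a1 had 1 UMI in each of 2 of the 10 and was seen in 11.1% of the 216.

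Mast cells are a known source of Hdc. Of the 8 listed mast cell markers, 7 (Cpa3, Mcpt1, Mcpt2, Cma1, Tpsb2, Fcer1a and Ms4a2) were at 0 UMIs in NON-EC in every library. Kit was the exception, at 117, 98.9, 214 and 185 CPM in NON-EC, and it was seen in 3 of the 10 Hdc cells and in 86 of the 216 without Hdc (39.8%). The immune marker Ptprc was at 0 in the 10 cells and was seen in 3 of the 216 without Hdc. The part of mast or other immune cells in the Hdc values was not tested. The hormone makeup of NON-EC differed between the libraries as well. Sst had 637, 1425, 23177 and 1584 CPM and Ghrl 18808, 11963, 3285 and 17760 CPM, with APC-KO replicate 1 the outlying library for both, and the part of this in the Hdc values was not tested.

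Beyond NON-EC, Hdc was close to the detection limit. EC had 2, 1, 2 and 5 UMIs, too few to be tested, while EEC-PRE, TUFT, ENTERO-PRO and GOBLET had 0 UMIs in every library. In EEC-PRE that allows up to 4.04, 5.40, 25.2 and 5.25 CPM. In PANETH 6 UMIs were seen in APC-KO replicate 2 and 0 in the other libraries. Free RNA held 0, 0, 1 and 4 Hdc UMIs. Over all kept cells the level was 0.41, 0.19, 3.99 and 2.71 CPM, with no overlap. Here too only the APC-KO sums met the filter on low genes. The log2 fold change was 3.43 (SE 0.55, unadjusted p 0.00158, edgeR adjusted p 0.99996). The same difference had an adjusted p of 0.0164 in the DESeq2 Wald test, and of 0.0348 in edgeR without APC-KO replicate 1.

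**Figure D2:**
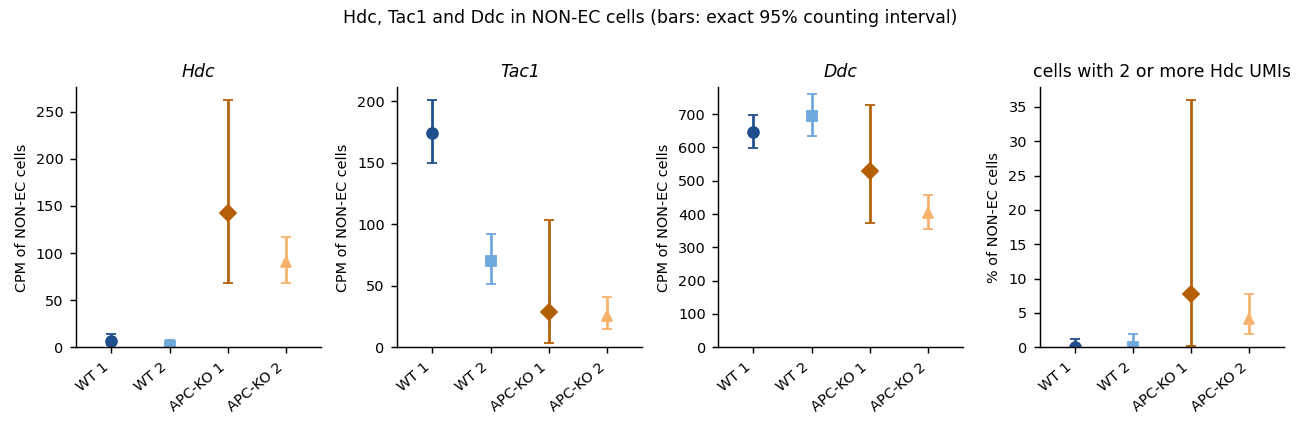
CPM of Hdc, Tac1 and Ddc in the NON-EC sum of each library, and the percentage of NON-EC cells with at least 2 Hdc UMIs. Bars are exact 95% intervals for counting error only. The APC-KO libraries lie above WT for Hdc and below WT for Tac1 and Ddc, and the 13 cells of APC-KO replicate 1 give it the widest bars.

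Slc18a1 (ENSMUSG00000036330, chromosome 8, 69037711 to 69089235, minus strand) encodes the amine transporter of endocrine granules. It had 218, 180, 278 and 248 CPM in EC, above every value of every other name. NON-EC followed with 38.9, 30.5, 85.7 and 38.0 CPM and overlapped EEC-PRE at 29.6, 19.8, 42.1 and 28.0 CPM. EC held 49.9% to 74.5% of its UMIs in kept cells, a smaller share than for Tph1 in each library.

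The low levels of Slc18a1 were not alike in all other names. GOBLET had 18.5, 17.7, 9.79 and 12.2 CPM and PANETH 8.13, 7.25, 16.6 and 21.1 CPM, against 2.28, 3.53, 0 and 2.32 CPM in TUFT. The ratio of Slc18a1 to Tph1 UMIs was 0.10, 0.10, 0.16 and 0.18 in EC and 0.19, 0.18, 0.38 and 0.25 in free RNA. In GOBLET it was 5.00 (exact 95% interval 1.41 to 26.9) in WT replicate 1, 2.08 (1.01 to 4.55) in WT replicate 2 and 6 (1.34 to 55.2) in APC-KO replicate 2, above EC and free RNA in each. APC-KO replicate 1 had 2 Slc18a1 and 0 Tph1 UMIs there. The other GOBLET ratios rested on 3, 12 and 2 Tph1 UMIs, and the 12 of WT replicate 2 came from 1 cell. These intervals take each UMI as independent and do not cover the spread between cells. On the opposite strand Atp6v1b2, a proton pump subunit gene with 5093 UMIs in kept cells, overlaps Slc18a1 from 69088646 to 69089235. This stretch is at the 5' end of both genes, while the libraries are 3' ones, and how many of the 5093 UMIs lie in it is not known. Whether strand was used in counting is not given in the sources used here, so reads of the overlap cannot be told apart.

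A Slc18a1 UMI was seen in 45.0%, 41.1%, 77.8% and 45.3% of EC cells, and in 32.3%, 31.0%, 42.2% and 36.5% after thinning, against 8.59%, 8.52%, 7.14% and 4.30% of GOBLET cells unthinned. APC-KO replicate 1, the deepest library per EC cell, was the highest in both. The EC means were 199 ± 27.2 CPM for WT (SD, n = 2) and 263 ± 21.1 CPM for APC-KO (SD, n = 2) without overlap. The log2 difference, 0.45 (SE 0.20, unadjusted p 0.0506, edgeR adjusted p 0.594), did not pass.

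Tac1 (ENSMUSG00000061762, chromosome 6, 7554879 to 7565834, plus strand), the tachykinin precursor gene, had 4223, 4696, 4801 and 2463 CPM in EC. APC-KO replicate 2 was the low library and the groups overlapped. EC held 91.4% to 99.5% of its UMIs in kept cells, and a Tac1 UMI was seen in 82.7%, 81.1%, 93.3% and 78.1% of EC cells. GOBLET cells showed one in 3.07%, 1.85%, 3.57% and 0.39%. In EC the log2 fold change was -0.22 (SE 0.33, edgeR adjusted p 0.893), and without APC-KO replicate 2 it was 0.19.

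NON-EC was the only other name with a Tac1 level above the range of the next name, ISC. It had 184, 48, 2 and 16 UMIs, or 174, 69.8, 28.6 and 25.4 CPM, while ISC reached 20.6 CPM. Free RNA held 113, 82.3, 81.7 and 35.9 CPM of Tac1, so the NON-EC level exceeded that of free RNA in WT replicate 1 only, and both were lowest in APC-KO replicate 2. The part of free RNA in the NON-EC values was not tested beyond subtracting it at 5% of each sum, which gave a log2 fold change of -2.24 (edgeR adjusted p 0.297). Both APC-KO values lay below both WT values, with means of 122 CPM ± 73.9 (SD, n = 2) and 27.0 ± 2.26 (SD, n = 2). The log2 fold change was -2.22 (SE 0.51, unadjusted p 0.000641, edgeR adjusted p 0.142) and did not pass. It passed when no filter on low genes was used (-2.27, edgeR adjusted p 8e-08), without WT replicate 2 (-2.70, edgeR adjusted p 1.53e-05) and when APC-KO replicate 1 was left out (-2.24, edgeR adjusted p 7.07e-09). The last 2 fits leave 1 library in a group, which is taken to vary like the other group, and without WT replicate 1 the value was -1.32 (edgeR adjusted p 0.913). Over the 11 alternatives the value ran from -2.70 to -1.32 and was negative in each. Of the 4 members tested in NON-EC the groups did not overlap for 3 (Ddc, Hdc and Tac1), where 39.3% of all tested genes did not overlap.

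Cells with at least 2 Tac1 UMIs were 21 of 305, 10 of 188, 1 of 13 and 3 of 217 NON-EC cells. The highest WT cell held 39 UMIs, and without the highest cell of each library the levels were 138, 59.9, 0 and 20.8 CPM. The ratio of Tac1 to Tph1 UMIs in NON-EC was 4.28 (exact 95% interval 3.06 to 6.11) in WT replicate 1 and 24.0 (6.29 to 204) in WT replicate 2, against 2.02 and 2.52 in EC and 2.12 and 2.52 in free RNA of the same libraries. In APC-KO replicate 2 the NON-EC ratio was 2.67 (0.991 to 8.32). Vim, which encodes the filament protein vimentin, moved the same way. It had 86.2, 82.9, 14.3 and 19.0 CPM in NON-EC, or -2.10 as log2 fold change (SE 0.36, edgeR adjusted p 0.0353), and it was the gene whose level was most like that of Tac1 over cell types. The summed enterochromaffin markers in NON-EC were 10806, 8904, 10768 and 6893 CPM, with the factor gene Lmx1a at 7.58, 1.45, 0 and 0 CPM, and the part of such transcripts in the Tac1 difference was not tested.

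Trpa1 (ENSMUSG00000032769, chromosome 1, 14872648 to 14918862, minus strand), the irritant channel gene, had 284, 230, 359 and 340 CPM in EC. EC held 89.9% to 100% of its UMIs in kept cells. NON-EC had 4.74, 2.91, 0 and 3.17 CPM, and EEC-PRE, TUFT and PANETH-PRE had 0 UMIs in every library. In TUFT a count of 0 allows up to 3.41, 5.30, 56.8 and 3.48 CPM, so APC-KO replicate 1 says little there. The channel was seen in a minority of EC cells, namely 28.9%, 24.8%, 33.3% and 31.2%, against 0%, 0.37%, 0% and 0.39% of GOBLET cells.

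The EC level of Trpa1 was higher in both APC-KO libraries than in both WT libraries, with means of 257 ± 38.5 CPM for WT (SD, n = 2) and 350 ± 12.9 CPM for APC-KO (SD, n = 2). The log2 difference, 0.50 (SE 0.21, unadjusted p 0.0348, edgeR adjusted p 0.550), did not pass, nor did it in any of the 11 alternatives, where it ran from 0.30 to 0.70. After thinning, 23.8%, 19.8%, 24.4% and 26.1% of EC cells had a Trpa1 UMI. Of the 6 members tested in EC, 3 (Tph1, Slc18a1 and Trpa1) had groups that did not overlap, where 38.9% of all tested genes did not. By edgeR 0% of the 8690 genes tested in EC were called, 729 had an unadjusted p under 0.05, and the DESeq2 Wald test called 6. That test gave the other 5 members an adjusted p of 0.99977 and left Maob without one.

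**Figure D3:**
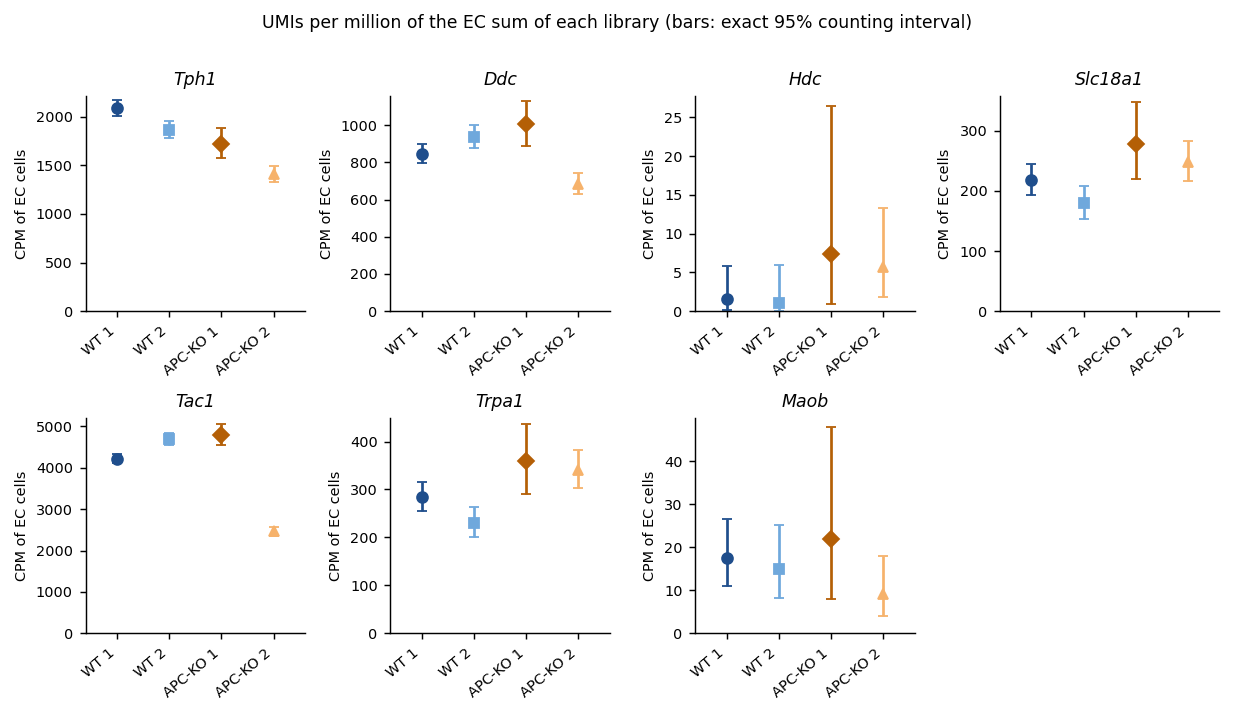
CPM of the 7 genes in the EC sum of each library, with exact 95% intervals for counting error only and 1 panel per gene. Both APC-KO libraries lie above WT for Slc18a1, Trpa1 and Hdc and below WT for Tph1, and APC-KO replicate 2 is the low library for Tac1 and Ddc. Hdc rests on only 2, 1, 2 and 5 UMIs, and its bars overlap between the genotypes.

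Within EC, Trpa1 and Tac1 went with Tph1 from cell to cell. Of the EC cells with a Trpa1 UMI, 110 of 112, 67 of 67, 15 of 15 and 86 of 97 also had a Tph1 UMI. EC cells were thinned to 2000 UMIs and grouped by their Tph1 UMIs into 0, 1 to 4 and 5 or more, with 93, 127 and 133 cells in WT replicate 1, 73, 91 and 94 in WT replicate 2, 10, 15 and 20 in APC-KO replicate 1, and 73, 112 and 64 in APC-KO replicate 2. Cells of 1 library are not replicates, so the shares that follow are descriptions.

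A Trpa1 UMI was seen in 3.23%, 23.6% and 38.3% of these groups in WT replicate 1 and in 1.37%, 23.1% and 30.9% in WT replicate 2. In APC-KO replicate 2 the shares were 8.22%, 30.4% and 39.1%, while APC-KO replicate 1, with 10 to 20 cells per group, had 10.0%, 33.3% and 25%. Tac1 was at 52.7%, 90.6% and 88.7% in WT replicate 1, 47.9%, 93.4% and 88.3% in WT replicate 2, 60%, 93.3% and 95% in APC-KO replicate 1 and 47.9%, 85.7% and 89.1% in APC-KO replicate 2, with its main step between the first and the second group. Slc18a1 was at 14.0%, 34.6% and 42.9% in WT replicate 1 and at 27.4%, 30.4% and 57.8% in APC-KO replicate 2. Ddc was level in WT replicate 2, at 82.2%, 82.4% and 81.9%. In the other libraries it was higher in the third group than in the first, at 74.2%, 78.7% and 84.2% in WT replicate 1, 70%, 80% and 85% in APC-KO replicate 1 and 67.1%, 67.0% and 76.6% in APC-KO replicate 2. EC cells without Tph1 thus mostly carried Ddc, and 47.9% to 60% of them carried Tac1.

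A precursor factor, a hormone gene and enterochromaffin markers also differed between these groups of cells. Neurog3, the transcription factor of endocrine precursors, was seen in 63.4%, 40.9% and 26.3% of the 3 groups in WT replicate 1, in 67.1%, 34.1% and 21.3% in WT replicate 2 and in 53.4%, 35.7% and 28.1% in APC-KO replicate 2. Its order was the opposite in the 45 cells of APC-KO replicate 1, at 20%, 40% and 45%. Sct, the secretin gene, went the other way, at 32.3%, 63.0% and 78.2% in WT replicate 1 and 31.5%, 50% and 73.4% in APC-KO replicate 2. Gfra3, a listed enterochromaffin marker, was at 49.5%, 38.6% and 29.3% in WT replicate 1 and 47.9%, 40.7% and 28.7% in WT replicate 2. In APC-KO replicate 2 it was at 38.4%, 37.5% and 34.4%, and in APC-KO replicate 1 at 40%, 33.3% and 55%. Chgb, another such marker, rose in mean UMIs in each library, from 78.0 to 147 in WT replicate 1. A rise with Tph1 was thus not particular to Trpa1, Tac1 and Sct.

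Few cells outside EC carried the full serotonin set. A UMI of each of Tph1, Ddc and Slc18a1 was seen together in 36.7%, 31.1%, 62.2% and 29.9% of EC cells, and in 22.9%, 20.9%, 33.3% and 22.1% after thinning. In NON-EC the unthinned shares were 0.98%, 0%, 0% and 0%, or 3, 0, 0 and 0 cells. ISC held 3, 0, 0 and 2 such cells. GOBLET-PRE, GP and SEC-PRO held 1 each in WT replicate 1, and GOBLET and TUFT 1 each in WT replicate 2. In EC, thinning brought APC-KO replicate 1 nearer to the other libraries but left it the highest.

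**Figure D4:**
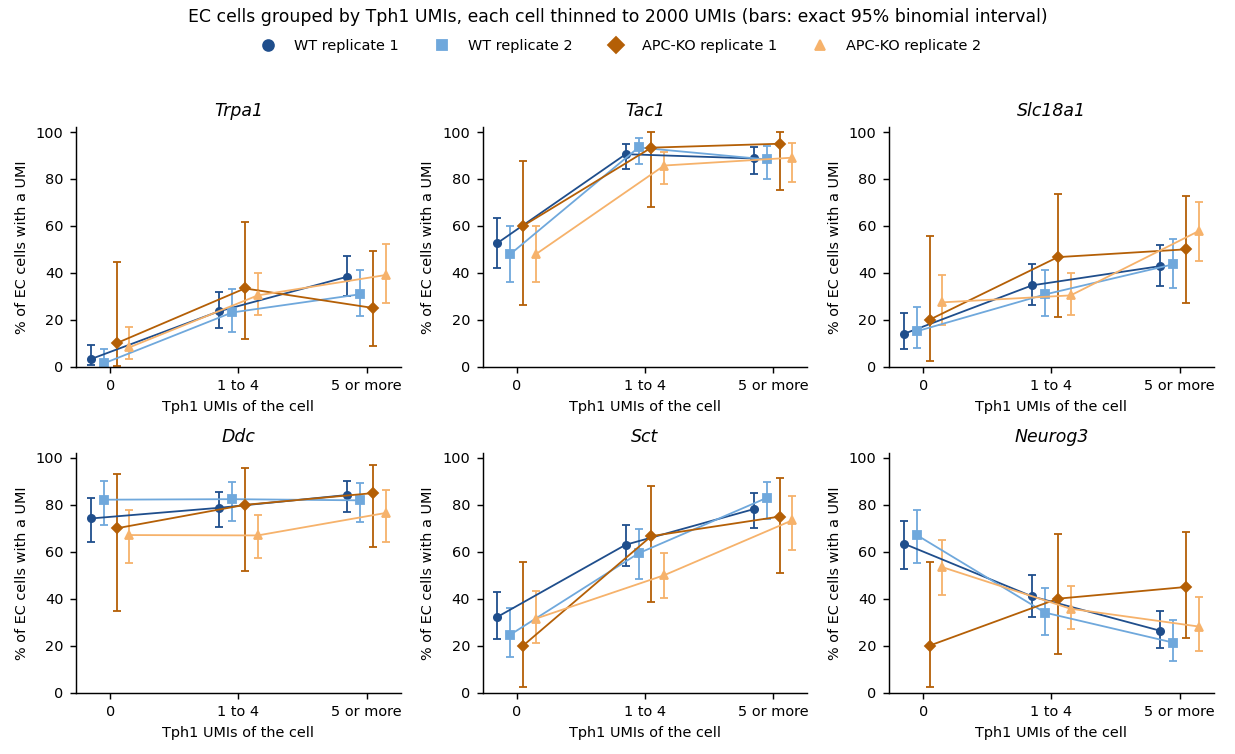
Percentage of EC cells with a UMI of Trpa1, Tac1, Slc18a1, Ddc, Sct or Neurog3 against the Tph1 UMIs of the cell (0, 1 to 4, 5 or more), each cell thinned to 2000 UMIs, with 1 line per library and exact 95% binomial bars. Trpa1, Tac1, Slc18a1 and Sct are lowest in the cells without Tph1 in all 4 libraries, Ddc is higher in the third group than in the first in 3 of 4 libraries, and Neurog3 falls in 3 of 4 libraries.

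Maob (ENSMUSG00000040147, chromosome X, 16709282 to 16817366, minus strand), a gene of amine breakdown, was placed apart from the synthesis genes. Its highest level was in ENTERO-PRO, at 46.1, 56.5, 70.3 and 30.7 CPM, with a UMI in 21.6%, 32.3%, 36.4% and 12.4% of those cells. EC followed at 17.6, 15, 22 and 9.11 CPM, below every ENTERO-PRO value, and overlapped NON-EC at 2.84, 8.72, 14.3 and 1.59 CPM. TUFT had 1 UMI in each of 2 libraries and GOBLET at most 1 UMI in a library. Free RNA held 3.61, 8.16, 13.3 and 6.87 CPM of Maob, near or above the NON-EC level in each library and below that of EC. In EC the log2 fold change was -0.34 (SE 0.49, edgeR adjusted p 0.892), which became 0.49 without APC-KO replicate 2.

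Most Maob UMIs lay outside the kept cells, which held 40.4%, 37.6%, 5.15% and 50.3% of the UMIs of all genes in the files. The authors' tables held 19.4%, 13.1%, 1.70% and 24.8% of the Maob UMIs of the files, against 72.4%, 72.8%, 28.2% and 69.7% of those of Tph1 and 69.4%, 73.8%, 52.7% and 66.8% of those of Trpa1. Other barcodes with at least 1000 UMIs, 3996 to 5335 per library, held 66.8% to 77.8% of the Maob UMIs. Their Maob level was 12.0, 12.5, 15 and 19.2 CPM, against 3.44, 2.67, 4.65 and 4.95 CPM in all kept cells. In those other barcodes both APC-KO values exceeded both WT values for 3 of the 7 members (Hdc, Slc18a1 and Maob) and for 8.86% of the 15649 genes with at least 10 UMIs there.

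**Figure D5:**
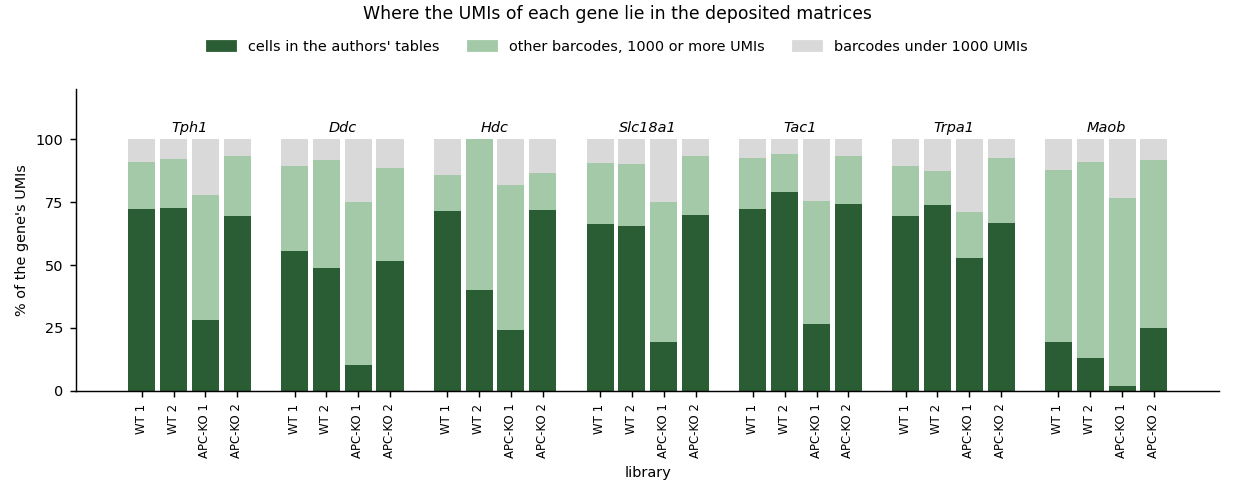
Percentage of the UMIs of each gene that lie in the cells of the authors' tables, in other barcodes with at least 1000 UMIs and in barcodes under 1000 UMIs, with 1 bar per library. Kept cells hold most UMIs of Tph1, Tac1 and Slc18a1 except in APC-KO replicate 1, most UMIs of Trpa1 in each library, and under 25% of those of Maob in each library.

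Over all kept cells a level depends on how many EC cells a library holds, and fewer cells of a type and less RNA per cell cannot be told apart there. EC made up 45 of 356 cells in APC-KO replicate 1 and 311 of 6243 in APC-KO replicate 2. Tph1 had 111, 85.3, 158 and 48.0 CPM, Tac1 235, 219, 438 and 84.8 CPM, and Trpa1 16.0, 10.5, 32.6 and 11.3 CPM, each highest in APC-KO replicate 1. All 7 members were tested, and none passed by edgeR, which called 0% of 13345 genes (495 with an unadjusted p under 0.05, and 23 called by the DESeq2 Wald test). The groups did not overlap for Hdc and Maob, 2 of 7, where 34.5% of all tested genes did not overlap. In EEC-PRE 2 members were tested, Ddc and Slc18a1, and neither was among the 43 of 6573 genes called (0.654%), while the groups did not overlap for 1 of the 2 and for 40% of all genes tested there. TUFT was not fitted, since 8 cells in APC-KO replicate 1 were under the least number of 10.

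The other genes of the pathways are given from 8 lists of 78 genes. Many did not meet the filter on low genes and were not tested, among them all 14 receptor genes in EC and NON-EC. Of those tested none passed between genotypes in EC, NON-EC, EEC-PRE or over all kept cells. There edgeR called 0%, 0.113%, 0.654% and 0% of all genes tested, so few or no calls could fall on lists of this size. In EC the 7 genes of cofactor synthesis, which supply tetrahydrobiopterin to Tph1 and pyridoxal phosphate to Ddc and Hdc, were all tested, 5 with a positive log2 fold change, and their median was 0.31 beside -0.002 over all genes. Gch1, the entry enzyme of tetrahydrobiopterin synthesis, had 478, 533, 329 and 244 CPM in EC (log2 fold change -0.77, SE 0.22, edgeR adjusted p 0.414), and Qdpr, which regenerates the cofactor, had 272, 252, 318 and 269 CPM. Of the other amine synthesis genes Tph2, Th, Dbh, Pnmt, Aanat and Asmt had 0 UMIs in EC in every library, and Odc1, the polyamine enzyme, was the only one tested.

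Of the 10 transport genes 6 were tested in EC, 4 with a positive value and a median of 0.12. Slc18a2, the second vesicular transporter, had 92.6, 43.8, 143 and 244 CPM there, without overlap, and its log2 fold change was 1.61 (SE 0.34, edgeR adjusted p 0.329). In NON-EC its level was 3.79, 1.45, 14.3 and 1.59 CPM. Slc3a2, an amino acid transporter subunit, had 40.3 to 59.2 CPM in EC. Of the 7 breakdown genes 4 were tested in EC, all with positive values and a median of 0.57. Among them Aldh1b1, an aldehyde dehydrogenase gene, had 60.7, 53.4, 36.6 and 95.6 CPM. Hnmt, the histamine methyltransferase gene, had 0 UMIs in EC in every library.

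Of the 14 receptor genes none was tested in EC, where the highest were Hrh3 at 3.19, 4.27, 0 and 0 CPM and Htr1d at 0.80, 2.14, 3.66 and 0 CPM. In the tachykinin and peptide processing list 4 of 7 were tested in EC, all positive, with a median of 0.29. Pcsk1, a prohormone convertase, had 805, 714, 787 and 696 CPM, and Cpe, which trims the cleaved peptides, 390, 410, 505 and 460 CPM. The sensing list had 10 of 16 tested, 5 positive, and a median of -0.03, with the sodium channel gene Scn3a at 766, 705, 812 and 772 CPM and the calcium channel gene Cacna1a at 650, 613, 688 and 462 CPM. All 10 fate factors were tested, 3 positive, with a median of -0.13, and Neurod1 led them at 1367, 1181, 1420 and 1470 CPM, followed by Hmgn3 at 811, 904, 827 and 689 CPM.

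The genes whose levels were most like each member were found by Pearson correlation of log2(CPM + 1) over 45 sums of a type and library with at least 10 cells. The sums share libraries and depth, so r describes them only. For Tph1 they were Igfbp3 (r = 0.93), Slc38a11 (0.92) and Lmx1a (0.92). For Trpa1 they were Slc38a11 (0.97), Ucn3 (0.96) and Lmx1a (0.96), and for Tac1 Vim (0.93), Igfbp3 (0.92) and Lmx1a (0.91). Slc18a1 was most like Ptprn2 (0.91), Ffar2 (0.87) and Pcsk1 (0.87), and Ddc like Gdap1l1 (0.92), Eif4e3 (0.92) and Dst (0.91). Hdc was most like A2ml1 (0.84), Hhex (0.84) and Dbpht2 (0.83), and Maob like Apob (0.88), Cyp2c65 (0.84) and Glod5 (0.82). Among the members themselves r was 0.91 between Tph1 and Trpa1, 0.87 between Tph1 and Tac1 and 0.58 between Tph1 and Ddc.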

How the data were processed

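Single-cell 3' libraries of sorted crypt cells were deposited as UMI counts per gene and barcode, and the authors named Cell Ranger, STAR and mm10 in the submitters' processing notes (software version 3.0.2 per the file headers). The deposited tables of kept cells give a cell type name (a label, recorded as other than a measurement) and the percent of mitochondrial UMIs per cell, at most 7 percent in the cells the authors kept, which have 901 to 2999 genes. How the authors treated doublets is not given in the sources used here, and no doublet caller was run. The members and lists were chosen with earlier results of these data known.

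UMIs were summed per name and library, since cells are not replicates. Sums of at least 10 cells in each library were compared between genotypes with edgeR 4.0.16 in R 4.3.3 (quasi-likelihood test, TMM scaling, filterByExpr, Benjamini-Hochberg adjusted p under 0.05 over all genes tested), with DESeq2 1.42.0 as an alternative. Types were not tested against each other, because their names rest on the same cells. Intervals are exact at 95% and cover counting error only. Thinning drew 2000 UMIs per cell and left out shallower cells. The fits were tested on simulated data. The genes named were the members, in each pathway list the 2 with the highest EC level (1 of them is not reported here), and for each member the 3 most like it. Markers are named from their lists, and genes at 0 and genes described in the Hdc cells were named after their values were seen.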

Additional observations from a re-analysis of the deposited data

Results flagged for a closer look

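Barcodes with at least 1000 UMIs that the authors' tables leave out also held the members, and for 3 of the 7 both APC-KO libraries exceeded both WT libraries there, as did 8.86% of the 15649 genes with at least 10 UMIs in these barcodes. Hdc had 0.703 and 0.792 CPM in APC-KO replicates 1 and 2, against 0.0797 and 0.224 CPM in WT. Slc18a1 had 7.05 and 7.76 CPM in APC-KO, against 7.01 and 4.49 CPM in WT, so that APC-KO replicate 1 and WT replicate 1 were nearly equal. Maob had 15 and 19.2 CPM in APC-KO, against 12.0 and 12.5 CPM in WT. These differences were not tested, and the cell types of these barcodes are not given.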

How the results depend on the processing

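In EC, where edgeR called 0 genes, the DESeq2 Wald test called 6, no filter on low genes 180 and thinned cells 4, and leaving out 1 library gave 0 to 405. In NON-EC, with 9 called, the DESeq2 Wald test gave 3, no filter 156, thinned cells 5, cells with at least 2000 UMIs 5, subtracted free RNA 1 and the replicate block 3, and leaving out 1 library gave 13 to 344. In EEC-PRE, with 43 called, DESeq2 size factors gave 16, the Wald test 13, no filter 101, thinned cells 15, cells with at least 2000 UMIs 13 and subtracted free RNA 22, and leaving out 1 library gave 0 to 285. Over all kept cells, with 0 called, the Wald test gave 23, the replicate block 4 and leaving out 1 library 0 to 483. The highest of each range was reached without APC-KO replicate 1, and the cause was not tested.

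The labels do not say that replicate numbers pair libraries, and same-numbered libraries deviated from their group means with r of -0.07 in EC, -0.05 in NON-EC, -0.07 in EEC-PRE and -0.31 over all cells. With the replicate block Hdc in NON-EC had a log2 fold change of 4.82 (adjusted p 0.00489, edgeR) and Tac1 -1.65 (adjusted p 0.501, edgeR). Over all cells the replicate block turned Tph1 to -0.071 and Tac1 to -0.14. A crossed replicate block, chosen after seeing the data, called 1 gene and turned Tph1 to -0.079, Ddc to -0.002 and Tac1 to -0.14.

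Member log2 fold changes also turned in EC without WT replicate 2 (Ddc 0.02) and without APC-KO replicate 2 (Ddc 0.26, Tac1 0.19, Maob 0.49), with leave-one-out ranges of -0.34 to 0.26 for Ddc, -0.81 to 0.19 for Tac1 and -0.80 to 0.49 for Maob. Over all cells they turned without APC-KO replicate 1 (Tph1 -1.02, adjusted p 0.0459, Ddc -0.60, Slc18a1 -0.11, Tac1 -1.40, adjusted p 0.0223, and Trpa1 -0.22, edgeR), while without APC-KO replicate 2 they were 0.89, 0.64, 1.16, 1.15 and 1.495 for the same genes. With all barcodes of at least 1000 UMIs they were -0.64 for Tph1, -0.11 for Ddc, -0.65 for Tac1 and -0.25 for Trpa1. The 13 NON-EC and 45 EC cells of APC-KO replicate 1 limit every comparison that uses it.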
